A study of Mus musculus with 8 samples.

Results

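The genes described here are Foxp3 and 5 genes that mark regulatory T cells (Treg) beside it: Folr4, Gpr83, Capg, Swap70 and Nrp1. They were taken by symbol from the deposited Treg expression table, where all 6 are among the 22432 listed genes and among the 13797 that passed the filter on low values. They were chosen as known markers, with earlier results of these data in view. The series asked what loss of the alternative NF-kB pathway does to the Treg transcriptome.

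The RNA came from Treg cells of C57Bl/6 mice in 4 genotypes, with 2 libraries each. All cells, WT included, carried a Cre recombinase with a YFP reporter under Foxp3 control. WT cells carried this Cre alone, RelB-KO cells also carried floxed RelB, Nfkb2-KO cells floxed nfkb2, and DKO cells both. Reporter-positive cells were sorted from combined spleens and lymph nodes. They were then held for 16 h with IL-2 (10 ng/ml), coated anti-CD3 (5 µg/ml), dissolved anti-CD28 (1 µg/ml) and OX40-activating antibody (2 µg/ml). The sort limits what can be said of Foxp3 itself, because only cells with an active Foxp3 promoter entered each library. No unstimulated cells and no conventional T cells are in the groups compared, so the values say how the 6 genes differ between Treg genotypes, not between Treg and other cells. The labels do not say whether the 2 libraries of a genotype came from separate animals, so p-values measure only the spread between these libraries.

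Foxp3 is the forkhead transcription factor that defines Treg cells and is needed to keep their identity. Folr4, now named Izumo1r, encodes the surface protein FR4, a folate receptor family member used as a Treg surface marker. Gpr83 encodes a G protein-coupled receptor that is enriched in Treg cells. Nrp1 encodes neuropilin-1, a co-receptor for semaphorins and VEGF that is high on thymus-derived mouse Treg cells. Capg encodes a protein of the gelsolin family that caps the fast-growing ends of actin filaments. Swap70 encodes a phosphoinositide-binding protein that acts on Rac and F-actin and was first studied in B cells. The alternative NF-kB pathway works through RelB paired with p52, the processed product of Nfkb2, while the unprocessed Nfkb2 protein can hold NF-kB subunits in the cytoplasm.

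Values are the deposited log2 expression values. Differences are in log2 units ± the standard error of a limma model fitted to all 8 libraries, and calls were made below an adjusted p of 0.05 (Benjamini-Hochberg, all 13797 genes). Libraries with the same replicate number shared a shift. For the 6 members each result that changes its call when replicate number enters the model as a block is therefore given both ways. For other genes only some such results are given. Relb lay at 6.35 to 7.08 in the 4 libraries labelled as lacking it and at 10.49 to 10.84 in the others, and Nfkb2 lay at 8.75 to 9.85 and at 12.31 to 12.80. WT replicate 1 stood apart in 2 sex-linked transcripts. Its Ddx3y, from the Y chromosome, read 11.60 where the other 7 libraries read 4.25 to 4.35. Its Xist, from the X chromosome, read 8.17 where they read 14.6 to 15.1. By these 2 transcripts the other 7 libraries read as female and WT replicate 1 as male, so every difference from WT is partly confounded with sex. For the 6 members each difference from WT is therefore also given without that library, which matters first for Foxp3, an X-linked gene. For other genes the differences from WT are not given without it. T cell markers were high in all libraries, with a summed level of 16.03 to 16.22 on the log2 scale. In bulk RNA, fewer cells of a kind and less RNA in each cell cannot be told apart.

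The 2 members whose calls turned on the model were Capg and Swap70, both higher in Nfkb2-KO than in the other 3 genotypes. Because the study removed NF-kB subunits, their promoters are shown, from 250 bases before to 50 bases after the annotated start (RefSeq, GRCm38.p6, plus strand). Capitals mark every match, on either strand, to the kB-type letters GGG, then any 5 bases, then CC.
Capg chr6:72549397-72549696: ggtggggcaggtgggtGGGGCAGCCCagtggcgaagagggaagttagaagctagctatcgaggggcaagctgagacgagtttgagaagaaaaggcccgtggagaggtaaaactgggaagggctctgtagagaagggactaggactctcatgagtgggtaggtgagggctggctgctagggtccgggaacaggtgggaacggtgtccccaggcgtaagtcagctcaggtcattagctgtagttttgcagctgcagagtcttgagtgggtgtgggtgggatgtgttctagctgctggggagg
Swap70 chr7:110221453-110221752: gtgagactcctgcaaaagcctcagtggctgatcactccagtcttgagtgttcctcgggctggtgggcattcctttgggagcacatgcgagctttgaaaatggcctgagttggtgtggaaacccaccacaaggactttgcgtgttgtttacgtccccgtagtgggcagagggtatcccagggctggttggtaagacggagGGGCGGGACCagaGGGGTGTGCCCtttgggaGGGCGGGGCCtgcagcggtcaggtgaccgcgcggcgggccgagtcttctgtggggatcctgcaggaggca
The Capg window holds 1 match, which starts 234 bases before the annotated start. The Swap70 window holds 4 matches, of which 2 overlap, and all 4 begin within 51 bases before the start. Such a match is common: 16686 of 32851 promoters of this length, or 50.8%, hold at least 1. All 6 genes were found in the promoter table, with 7 promoters because Foxp3 has 2 annotated starts. Of these 7 promoters 5 hold the letters. Folr4 has 1 match and Nrp1 has 2 overlapping ones. One of the Foxp3 starts has 1 match, and the other start and Gpr83 have 0. A match is a description of the letters and not a site of binding.

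Foxp3 transcript differed little between the genotypes. Foxp3 (ENSMUSG00000039521.13, chromosome X, 7573644 to 7595245, plus strand, GRCm38) read 14.11 and 14.24 in WT replicates 1 and 2, 14.28 and 14.13 in RelB-KO, 14.07 and 14.05 in Nfkb2-KO, and 14.19 and 13.95 in DKO. The order of the means was RelB-KO (14.20 ± 0.11, SD, n = 2), WT (14.17 ± 0.09), DKO (14.07 ± 0.17) and Nfkb2-KO (14.06 ± 0.01). Both Nfkb2-KO libraries lay below both WT libraries, and the DKO and RelB-KO libraries overlapped with WT.

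Against WT, Foxp3 differed by 0.03 ± 0.12 in RelB-KO (limma adjusted p = 1.0), by -0.11 ± 0.12 in Nfkb2-KO (adjusted p = 0.842) and by -0.10 ± 0.12 in DKO (adjusted p = 0.941). The intervals bound what these libraries could show: the 95% interval of the fold ran from 0.837 to 1.24 in RelB-KO, from 0.761 to 1.13 in Nfkb2-KO and from 0.766 to 1.14 in DKO. Without WT replicate 1 the differences were -0.03, -0.17 and -0.16, so that the sign in RelB-KO turned. The annotated span of Foxp3 overlaps that of Ppp1r3f by 640 bases and that of Ccdc22 by 1437 bases, both on the minus strand, and the sources used here do not state whether reads were counted by strand.

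**Figure D1:**
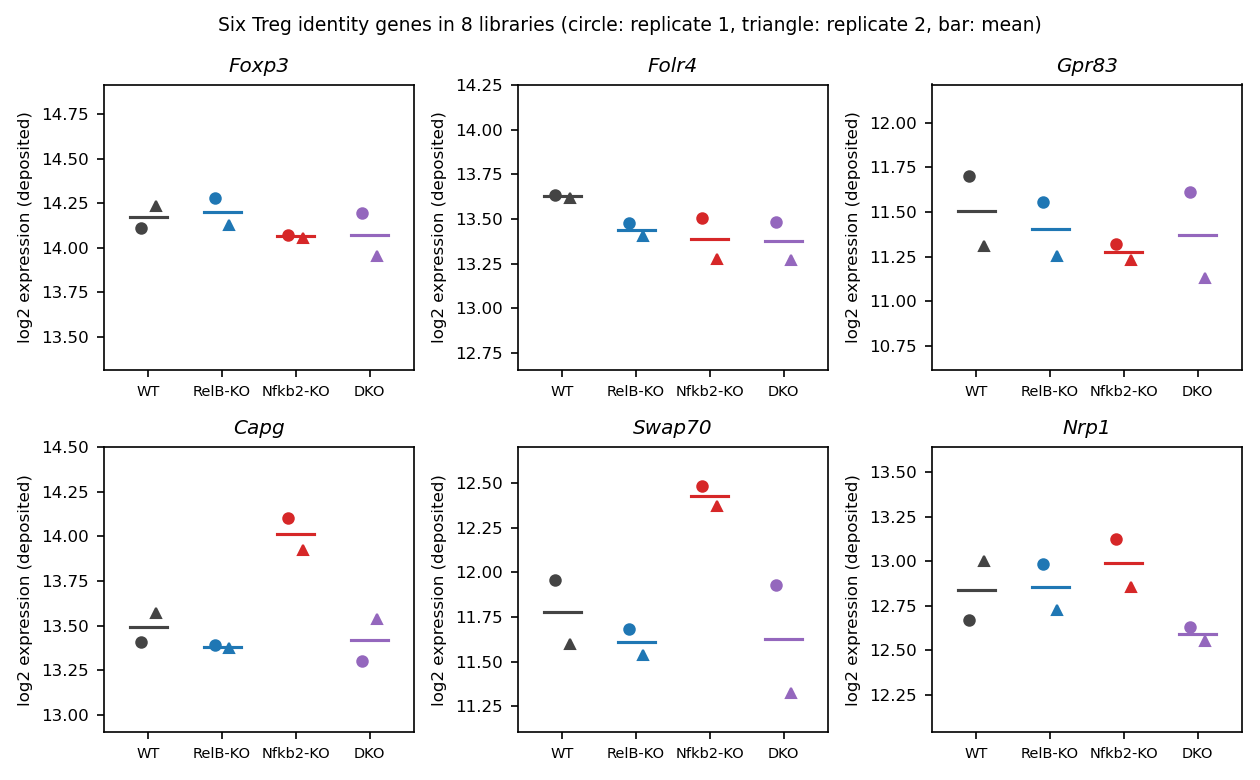
Deposited log2 expression (vertical axis) of the 6 genes in the 4 genotypes (horizontal axis), with a circle for replicate 1, a triangle for replicate 2 and a bar for the mean. Every panel spans the same number of log2 units. Both Nfkb2-KO libraries lie above the other 6 for Capg (14.10 and 13.92) and Swap70 (12.48 and 12.37), while the 8 Foxp3 points lie between 13.95 and 14.28.

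Folr4, the folate receptor family gene, read lower in every knockout library than in both WT libraries, but no difference passed the test. Folr4 (annotated as Izumo1r, ENSMUSG00000031933.17, chromosome 9, 14885814 to 14903949, minus strand, GRCm38) read 13.64 and 13.62 in WT, 13.48 and 13.40 in RelB-KO, 13.50 and 13.28 in Nfkb2-KO, and 13.49 and 13.27 in DKO. The WT mean was 13.63 ± 0.01 (SD, n = 2), against 13.44 ± 0.05, 13.39 ± 0.16 and 13.38 ± 0.15. The 3 knockout groups overlapped with each other. Of all tested genes, 20.6% did not overlap between RelB-KO and WT, 42.5% between Nfkb2-KO and WT and 34.1% between DKO and WT. The share of genes with all 3 knockouts on the same side of WT was not counted.

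The differences of Folr4 from WT were -0.19 ± 0.12 in RelB-KO (limma adjusted p = 1.0), -0.24 ± 0.12 in Nfkb2-KO (adjusted p = 0.559) and -0.25 ± 0.12 in DKO (adjusted p = 0.861). With the block the limma adjusted p was 0.171 in Nfkb2-KO and 0.293 in DKO. These 3 comparisons share the WT libraries. Within replicate 1 the differences were -0.16, -0.13 and -0.15, and within replicate 2 they were -0.22, -0.34 and -0.35. Without WT replicate 1 they were -0.18, -0.23 and -0.24. In the authors' deposited table the Folr4 log2 fold changes were -0.20, -0.25 and -0.27, with adjusted p-values of 1.0, 0.0939 and 0.150.

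Gpr83, the receptor gene, lies next to Folr4 and faces it tail to tail at a distance of 15024 bases. Gpr83 (ENSMUSG00000031932.14, chromosome 9, 14860210 to 14870789, plus strand, GRCm38) read 11.70 and 11.31 in WT, 11.55 and 11.26 in RelB-KO, 11.32 and 11.23 in Nfkb2-KO, and 11.61 and 11.13 in DKO. Replicate 1 was the higher of the 2 in all 4 genotypes, by 0.09 to 0.49, and all 4 genotypes overlapped. The differences from WT were -0.10 ± 0.20 in RelB-KO, -0.23 ± 0.20 in Nfkb2-KO and -0.14 ± 0.20 in DKO, with limma adjusted p-values of 1.0, 0.780 and 0.963. Without WT replicate 1 these differences were 0.092, -0.036 and 0.059, so that the sign in RelB-KO and DKO turned.

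Nrp1, the neuropilin-1 gene, was lowest in DKO. Nrp1 (ENSMUSG00000025810.9, chromosome 8, 128358604 to 128503363, plus strand, GRCm38) read 12.67 and 13.00 in WT, 12.98 and 12.72 in RelB-KO, 13.13 and 12.86 in Nfkb2-KO, and 12.63 and 12.56 in DKO. The 2 DKO libraries lay below all 6 others, and WT, RelB-KO and Nfkb2-KO overlapped. How often a tested gene has a genotype apart from all other libraries in this way was not counted. The order of the means was Nfkb2-KO (12.99 ± 0.19, SD, n = 2), RelB-KO (12.85 ± 0.18), WT (12.84 ± 0.23) and DKO (12.59 ± 0.05).

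The largest Nrp1 difference was between the DKO and Nfkb2-KO groups, at -0.40 ± 0.16, a fold of 0.759 (95% interval 0.585 to 0.985), and it was not called (limma adjusted p = 0.466, and 0.164 with the replicate block). With the block it was called when WT replicate 1 or WT replicate 2 was left out. DKO differed from WT by -0.24 ± 0.16 (adjusted p = 0.861), or by -0.41 without WT replicate 1, and from RelB-KO by -0.26 ± 0.16 (adjusted p = 1.0). Nfkb2-KO differed from WT by 0.15 ± 0.16 (adjusted p = 0.822), with 0.46 in replicate 1 and -0.15 in replicate 2, and RelB-KO by 0.02 ± 0.16 (adjusted p = 1.0). Without WT replicate 1 both signs turned, with -0.012 in Nfkb2-KO and -0.15 in RelB-KO.

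Capg, the actin filament capping gene, was higher in Nfkb2-KO than in the other genotypes. Capg (ENSMUSG00000056737.14, chromosome 6, 72544391 to 72562983, plus strand, GRCm38) read 14.10 and 13.92 in Nfkb2-KO. It read 13.41 and 13.57 in WT, 13.39 and 13.37 in RelB-KO, and 13.30 and 13.54 in DKO. The means were 14.01 ± 0.13 (SD, n = 2) in Nfkb2-KO, 13.49 ± 0.11 in WT, 13.42 ± 0.17 in DKO and 13.38 ± 0.01 in RelB-KO, and only Nfkb2-KO lay apart from each of the other 3.

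The difference between Nfkb2-KO and WT was 0.52 ± 0.12 for Capg, a fold of 1.44 (95% interval 1.18 to 1.76). It was not called in the model without the block (limma adjusted p = 0.213) and was called with it (0.52 ± 0.11, adjusted p = 0.0376). Within replicate 1 it was 0.69 and within replicate 2 it was 0.35. The call with the block was lost without WT replicate 1 (adjusted p = 0.135), WT replicate 2 (0.067) or Nfkb2-KO replicate 1 (0.306). The authors' deposited table gives Capg a log2 fold change of 0.54 with an adjusted p of 0.000228.

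When RelB was also absent, Capg lay lower again, in DKO at -0.59 ± 0.12 against Nfkb2-KO (limma adjusted p = 0.111, and 0.0147 with the block), and RelB-KO lay 0.63 ± 0.12 below Nfkb2-KO (0.103, and 0.0127 with the block). DKO and WT differed by -0.07 ± 0.12 (adjusted p = 0.974), and RelB-KO and WT by -0.11 ± 0.12 (adjusted p = 1.0). Without WT replicate 1 the differences from WT were 0.44 in Nfkb2-KO, -0.15 in DKO and -0.19 in RelB-KO. Without DKO replicate 1, DKO replicate 2 or Nfkb2-KO replicate 1 the call between DKO and Nfkb2-KO with the block was lost (adjusted p = 0.132, 0.0618 and 0.142). Without RelB-KO replicate 1, RelB-KO replicate 2 or Nfkb2-KO replicate 1 the call between Nfkb2-KO and RelB-KO with the block was lost (0.0512, 0.0878 and 0.131).

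Swap70, the phosphoinositide-binding regulator of actin, was also highest in Nfkb2-KO. Swap70 (ENSMUSG00000031015.8, chromosome 7, 110221711 to 110283506, plus strand, GRCm38) read 12.48 and 12.37 in Nfkb2-KO, 11.96 and 11.60 in WT, 11.68 and 11.54 in RelB-KO, and 11.93 and 11.33 in DKO. Nfkb2-KO (12.43 ± 0.08, SD, n = 2) lay above all other libraries. WT (11.78 ± 0.26), DKO (11.63 ± 0.43) and RelB-KO (11.61 ± 0.10) overlapped, and replicate 1 was the higher of the 2 in all 4 genotypes, by 0.11 to 0.60.

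Swap70 was 0.65 ± 0.21 higher in Nfkb2-KO than in WT, a fold of 1.57 (95% interval 1.1 to 2.23), which was not called without the block (limma adjusted p = 0.362) and was called with it (0.65 ± 0.11, adjusted p = 0.0239). The within-replicate differences were 0.52 and 0.78. The call with the block was lost without WT replicate 1 (adjusted p = 0.073), WT replicate 2 (0.102) or Nfkb2-KO replicate 2 (0.152). In the authors' deposited table the Swap70 log2 fold change was 0.65, with an adjusted p of 4.29e-05.

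Between DKO and Nfkb2-KO, Swap70 differed by -0.80 ± 0.21 (limma adjusted p = 0.205, and 0.0059 with the block), with -0.55 in replicate 1 and -1.05 in replicate 2, and this call with the block was lost without DKO replicate 2 (adjusted p = 0.0658). Between Nfkb2-KO and RelB-KO it differed by 0.82 ± 0.21 (0.205, and 0.00571 with the block), and the call with the block held in all 8 fits that left out 1 library. Against WT, Swap70 differed by -0.17 ± 0.21 in RelB-KO (adjusted p = 1.0) and by -0.15 ± 0.21 in DKO (adjusted p = 0.959). Without WT replicate 1 the differences from WT were 0.83 in Nfkb2-KO, 0.013 in RelB-KO and 0.030 in DKO, so that the sign in RelB-KO and DKO turned.

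Of the 6 genes, 0 were called in any of the 7 comparisons by limma without the block. With the block 2 were called, Capg and Swap70, in Nfkb2-KO against WT, in DKO against Nfkb2-KO and in Nfkb2-KO against RelB-KO, and 0 in the other 4. Among all 13797 genes the share called without the block was 0.00725% in RelB-KO against WT, 0.341% in Nfkb2-KO against WT and 0.0145% in DKO against WT. It was 0.768% in DKO against Nfkb2-KO, 0.00725% in DKO against RelB-KO, 0.797% in Nfkb2-KO against RelB-KO and 0.00725% for the interaction. With the block the shares were 0.0145%, 2.91% and 0.0652% for the 3 knockouts against WT in that order, then 5.02%, 0.0145%, 4.46% and 0.471%. At an unadjusted p under 0.05 without the block, the members were Capg and Swap70 in Nfkb2-KO against WT, where 10.7% of all genes passed, and Capg, Swap70 and Nrp1 in DKO against Nfkb2-KO, where 9.86% passed. They were Capg and Swap70 in Nfkb2-KO against RelB-KO (11.9% of all genes) and Capg in the interaction (4.45%). With the block Folr4 and Gpr83 also passed in Nfkb2-KO against WT, where 2528 of the 13797 genes did. Folr4 also passed in DKO against WT (1773 genes) and Swap70 in the interaction (1153 genes). By the authors' adjusted p under 0.05, from their deposited table, Capg and Swap70 were called in Nfkb2-KO against WT, where 6.22% of genes were called, and 0 members in the other 2 knockouts, where 0.119% (RelB-KO) and 1.23% (DKO) were called.

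The interaction asks whether RelB loss had another effect in cells lacking Nfkb2 than in cells with it. It was -0.48 ± 0.17 for Capg, -0.63 ± 0.30 for Swap70 and -0.41 ± 0.22 for Nrp1, and 0 members were called (limma adjusted p = 1.0 for all 3, and 0.308, 0.194 and 0.628 with the block).

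**Figure D2:**
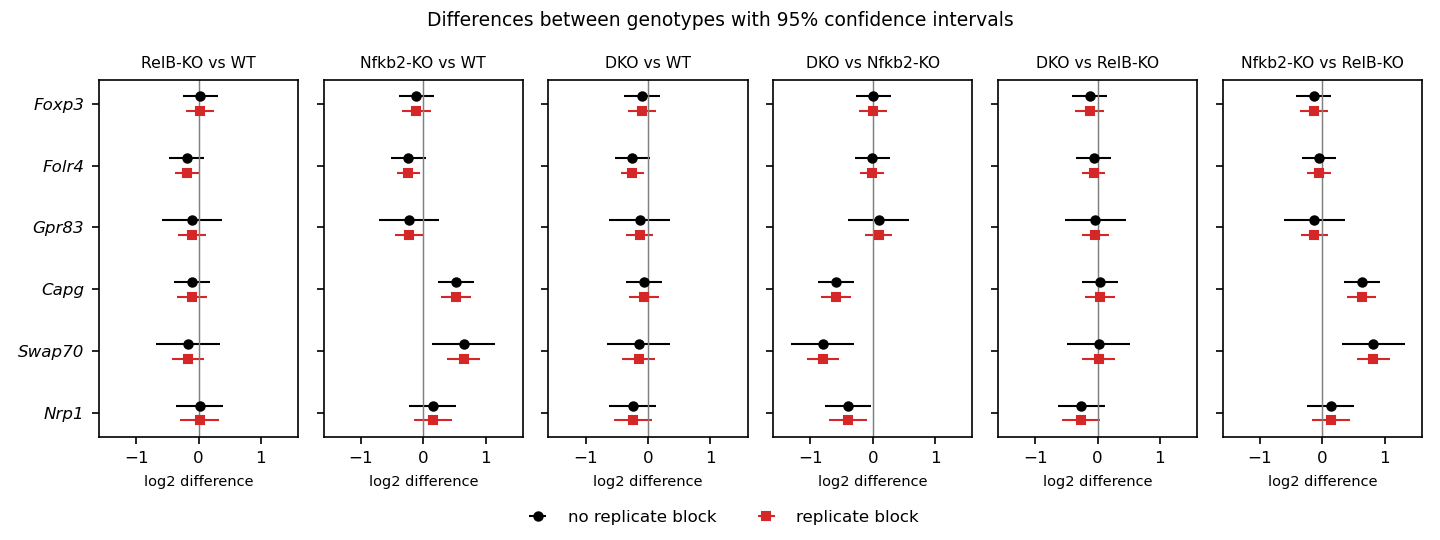
Difference between 2 genotypes in log2 units (horizontal axis) for each gene (vertical axis), 1 panel per comparison, with bars for the 95% confidence interval of the limma model without the replicate block (black circles) and with it (red squares). Capg and Swap70 stand to the right of 0 in both comparisons of Nfkb2-KO with RelB-KO and WT and to the left in DKO against Nfkb2-KO, while all Foxp3 intervals cross 0.

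Groups of 2 libraries often fail to overlap: 42.5% of all tested genes did so between Nfkb2-KO and WT, where 4 of the 6 genes did (Foxp3 and Folr4 lower, Capg and Swap70 higher). Between RelB-KO and WT the share was 20.6% and the members were Folr4 and Capg, and between DKO and WT it was 34.1% and the members were Folr4 and Nrp1. Between DKO and Nfkb2-KO it was 35.1%, with Capg, Swap70 and Nrp1, and between DKO and RelB-KO 27.5%, with Nrp1. Between Nfkb2-KO and RelB-KO it was 42.0%, with Foxp3, Capg and Swap70. These shares are for pairs of genotypes. The share of genes with both libraries of a genotype beyond all other libraries was not counted. Statements of that kind, for these and other genes, are therefore descriptions only. An exact permutation test of 2 libraries against 2 cannot give a two-sided p below 0.333.

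The 6 genes varied to unequal degrees over the 8 libraries. After the mean of each replicate number was subtracted, 63.2% of all tested genes had a smaller standard deviation than Foxp3, 73.2% than Folr4 and 73.4% than Gpr83. For Nrp1 the share was 91.4%, for Capg 96.4% and for Swap70 98.4%.

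The patterns of the genes over the libraries were compared by Pearson's r, as a description over 8 libraries that share genotypes and replicate numbers. Capg and Swap70 had the highest r of the 15 pairs, at 0.83, and 0.72 on the values as deposited. That likeness rested on Nfkb2-KO: over the 6 libraries of the other genotypes the r of Capg and Swap70 was -0.18. Foxp3 had an r of 0.55 with Folr4 and 0.51 with Gpr83, and Folr4 and Gpr83 had an r of 0.51. Without the Nfkb2-KO libraries these 3 values were 0.54, 0.37 and 0.92. Gpr83 and Capg had the lowest r, at -0.70, and 0.03 without the Nfkb2-KO libraries. For Gpr83 and Swap70 the sign depended on the centring, with -0.31 after it and 0.17 before it, as it did for Folr4 and Swap70, with -0.18 and 0.06. Without the Nfkb2-KO libraries the centred r was 0.93 for Gpr83 and Swap70 and 0.75 for Folr4 and Swap70.

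**Figure D3:**
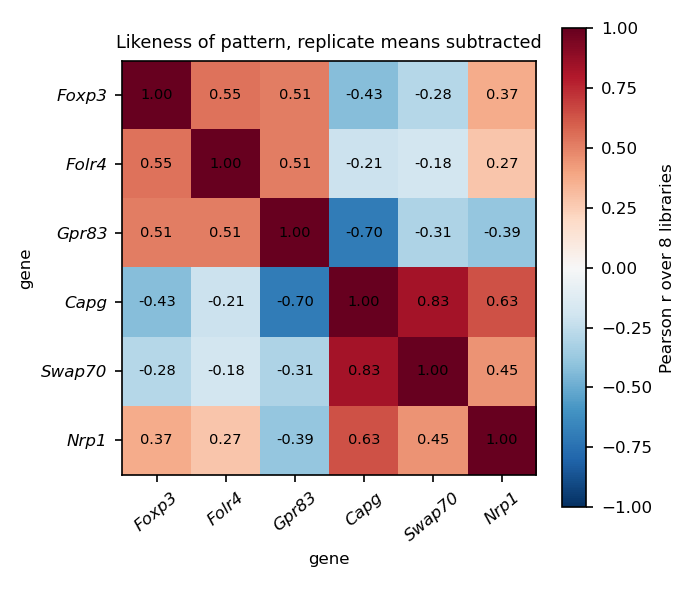
Pearson's r between each pair of the 6 genes (both axes) over 8 libraries after the mean of each replicate number was subtracted, with red for positive and blue for negative values. Capg and Swap70 share the highest value (0.83), and Foxp3, Folr4 and Gpr83 have values of 0.51 to 0.55 with each other.

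The genes whose patterns were most like each member were sought among the genes with a standard deviation of at least 0.1 after centring, 4906 for Foxp3 and 4905 for the others. For Foxp3 they were Osbpl6 (r = 0.98), Itga4 (0.97) and Kbtbd11 (0.97). For Folr4 they were Tmem194b (0.98), Aig1 (0.96) and Dram2 (0.96), and for Gpr83 they were Slc25a23 (0.98), Usp6nl (0.95) and Apbb3 (0.94). Nrp1 was most like Farp1 (0.97), Iglon5 (0.97) and Anxa2 (0.96). Capg was most like Ccdc97, Syt5 and Amph (all 0.99), and Swap70 most like Dnajc10 (0.99), Scmh1 (0.99) and Ncoa7 (0.98). Each was picked as the highest of that many values over 8 libraries.

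The annotated genes beside each member were examined in the same fit, 17 of them tested beside the members themselves. Both genes after Swap70 on chromosome 7 lay higher in Nfkb2-KO, as Swap70 did. Sbf2, a myotubularin-related gene whose 3′ end lies 24506 bases past Swap70 and whose start lies 331415 bases past it, read 9.86 and 9.99 in Nfkb2-KO, against 9.46 and 9.40 in WT, 9.44 and 9.19 in RelB-KO, and 9.51 and 9.22 in DKO. Adm, which encodes the peptide adrenomedullin and lies 344154 bases past Swap70, read 5.57 and 5.53 in Nfkb2-KO, against 5.23 and 5.07 in WT, 5.22 and 5.04 in RelB-KO, and 5.26 and 5.04 in DKO. For both genes the Nfkb2-KO libraries lay above all others.

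Relative to WT, Sbf2 was 0.50 ± 0.13 higher in Nfkb2-KO (limma adjusted p = 0.260, and 0.0441 with the block) and Adm was 0.40 ± 0.11 higher (0.267, and 0.0247 with the block). Both were also called with the block in DKO against Nfkb2-KO (Sbf2 -0.56, adjusted p = 0.0191, and Adm -0.40, adjusted p = 0.0147) and in Nfkb2-KO against RelB-KO (Sbf2 0.61, adjusted p = 0.0146, and Adm 0.42, adjusted p = 0.0141). These calls with the block depended on single libraries. Between Nfkb2-KO and WT, Sbf2 kept its call in 3 of the 8 fits that left out 1 library, those without Nfkb2-KO replicate 1 or either RelB-KO library, and Adm in 4, those without either RelB-KO or either DKO library. Between DKO and Nfkb2-KO both were lost without either DKO library or Nfkb2-KO replicate 2, with adjusted p up to 0.205 for Sbf2 and 0.177 for Adm. Between Nfkb2-KO and RelB-KO both were lost without Nfkb2-KO replicate 2 or RelB-KO replicate 2, and Adm also without RelB-KO replicate 1, with adjusted p up to 0.109 for Sbf2 and 0.103 for Adm. On the other side of Swap70, Wee1 and Zfp143 were not called. Of the 17 neighbours, 0 were called by limma without the block. At most 3 had an unadjusted p under 0.05, in Nfkb2-KO against WT (10.7% of all genes) and in DKO against Nfkb2-KO (9.86%). With the block Sbf2 and Adm were the 2 called in each of these 3 comparisons. The shares of all genes were 2.91% in Nfkb2-KO against WT, 5.02% in DKO against Nfkb2-KO and 4.46% in Nfkb2-KO against RelB-KO.

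**Figure D4:**
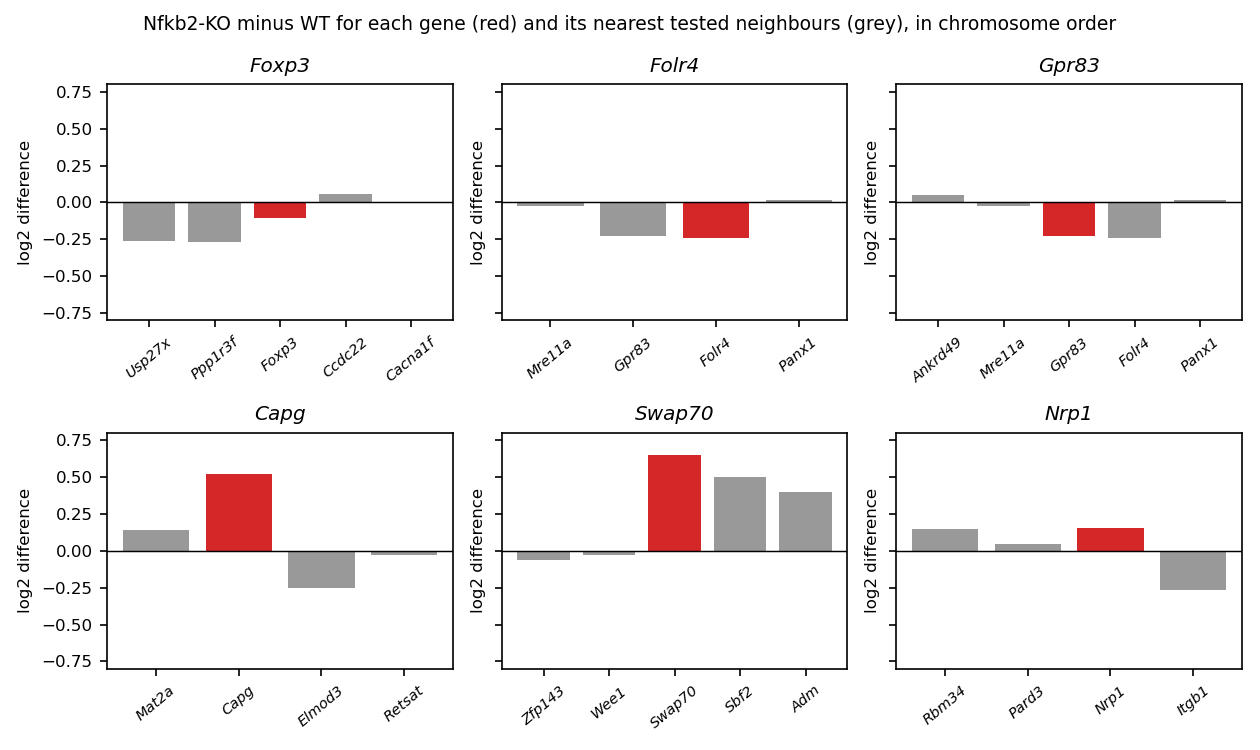
Nfkb2-KO minus WT in log2 units (vertical axis, bars from 0) for each of the 6 genes (red) and its nearest tested neighbours (grey) in the order of their positions on the chromosome. Sbf2 (0.50) and Adm (0.40) stand on the same side as Swap70 (0.65), while the neighbours of Capg lie on both sides of 0, and the bar of Cacna1f is too close to 0 to be seen.

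Capg and Swap70 belong to families, and these were examined with those of Foxp3, Folr4 and Nrp1, 12 tested genes of 13 listed. Scin, which encodes the actin-severing gelsolin family protein adseverin, read 11.48 and 11.25 in Nfkb2-KO, against 8.80 and 9.39 in WT, 8.92 and 8.83 in RelB-KO, and 9.08 and 8.56 in DKO. It was called in the same 3 comparisons as Capg and in both models, at 2.27 ± 0.24 in Nfkb2-KO against WT (limma adjusted p = 0.0321), -2.54 ± 0.24 in DKO against Nfkb2-KO (0.014) and 2.49 ± 0.24 in Nfkb2-KO against RelB-KO (0.0142). With the block these 3 calls held in all 8 fits that left out 1 library, and without it the adjusted p ranged over those fits from 0.0305 to 0.195, from 0.0174 to 0.0975 and from 0.0165 to 0.0995. With the block Scin was also called in the interaction (-2.32, adjusted p = 0.0183), which was lost without RelB-KO replicate 1 or either DKO library. Gsn, the gene of gelsolin itself, differed by -0.20 between Nfkb2-KO and WT and Flii, another family member, by 0.03, and neither was called. Def6, the relative of Swap70, differed by -0.14 and Nrp2, the relative of Nrp1, by -0.02, and neither was called.

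Foxp1, the forkhead relative of Foxp3, read 11.17 and 11.10 in Nfkb2-KO, against 11.97 and 11.58 in WT, 11.74 and 11.99 in RelB-KO, and 11.99 and 11.69 in DKO. Its difference in Nfkb2-KO from WT was -0.64 and was called with the block (adjusted p = 0.0451, against 0.261 in the limma fit without it), and this call was lost without WT replicate 1 or without any 1 of the Nfkb2-KO and DKO libraries. Foxp1 was 0.70 higher in DKO than in Nfkb2-KO with the block (adjusted p = 0.021), a call lost without any 1 of the DKO and Nfkb2-KO libraries. Nfkb2-KO differed from RelB-KO by -0.73 with the block (adjusted p = 0.0209), a call lost without either Nfkb2-KO library or RelB-KO replicate 2. Foxp4, another relative, differed by 0.05 between Nfkb2-KO and WT. The median of the family list in Nfkb2-KO against WT was -0.03, against 0.00057 over all genes, and 4 of the 12 were positive.

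Other genes of the Treg signature were represented by 29 genes known to be higher in Treg than in conventional CD4 T cells. By limma they gave 0 calls in the 3 comparisons with WT, in either model. Without the block 3, 4 and 5 of them (RelB-KO, Nfkb2-KO and DKO) had an unadjusted p under 0.05, as did 1.24%, 10.7% and 5.18% of all genes. With the block and 1 library left out, at most 1, 2 and 3 were called. Their differences from WT ran from -0.35 to 0.86 in RelB-KO, from -0.56 to 1.03 in Nfkb2-KO and from -0.77 to 1.07 in DKO. Their medians were 0.09, 0.02 and 0.15, against 0.0017, 0.00057 and 0.00091 over all genes. In DKO against Nfkb2-KO 0 were called without the block, and 10 had an unadjusted p under 0.05 there, as did 9.86% of all genes. With the block 5 were called in that comparison, 3 higher and 2 lower, where 5.02% of all genes were called.

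The 4 with the largest differences among these 5 were Klrg1, an inhibitory receptor (1.23), Icos, a costimulatory receptor (0.78), Rgs16, a regulator of G protein signalling (-0.70), and Ebi3, a subunit of IL-35 (0.65). Icos read 13.65 and 13.50 in Nfkb2-KO, against 14.38 and 14.33 in DKO, 14.30 and 13.94 in RelB-KO, and 13.92 and 14.12 in WT. In Nfkb2-KO against RelB-KO, 4 were called with the block, where 4.46% of all genes were called. Lag3, an inhibitory receptor (0.99), and Rgs16 (0.65) were higher, and Icos (-0.54) and Ebi3 (-0.51) were lower. The number called with the block in DKO against Nfkb2-KO ranged from 1 to 11 when each library was left out in turn, and from 1 to 8 in Nfkb2-KO against RelB-KO.

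Among 12 genes known to be lower in Treg than in conventional CD4 T cells, 2 were called without the block in DKO against Nfkb2-KO, both higher. Of all genes 0.768% were called there without the block. Satb1, a chromatin organizer, was higher by 1.66 ± 0.22 (limma adjusted p = 0.0322) and Pde3b, a phosphodiesterase, by 1.18 ± 0.14 (0.0224). Both calls without the block held without either WT library and were lost without any 1 of the other 6. Satb1 read 10.60 and 10.65 in Nfkb2-KO, and 12.26 and 11.54 in WT, 12.20 and 11.94 in RelB-KO, and 12.29 and 12.28 in DKO. With the block Igfbp4 (1.79) and Lef1, a transcription factor of resting T cells (0.50), were also called higher and Il7r, the IL-7 receptor chain (-0.79), lower. The shares of all genes called with the block were 5.02% in DKO against Nfkb2-KO, 2.91% in Nfkb2-KO against WT and 0.471% in the interaction. In Nfkb2-KO against WT, 2 of the 12 were called with the block and 0 without it: Satb1 was lower (-1.28) and Il7r was higher (0.72), and the call of Satb1 held in all 8 fits that left out 1 library while that of Il7r was lost without WT replicate 1 or any 1 of the Nfkb2-KO and DKO libraries. In DKO against Nfkb2-KO the calls of Satb1 and Pde3b with the block held in all 8 such fits, and the count of the list ranged from 2 to 5. In the interaction, 2 were called with the block, Satb1 (1.49) and Pde3b (1.33), and 0 without it. That count fell to 0 without either DKO library, Nfkb2-KO replicate 1 or RelB-KO replicate 1, was 1 without RelB-KO replicate 2 and rose to 3 without WT replicate 2.

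Factors that act on the Foxp3 gene were represented by 22 genes, of which 0 were called by limma without the block in any comparison. At most 4 had an unadjusted p under 0.05 without the block (DKO against Nfkb2-KO, where 9.86% of all genes did). With it, Stat5a, which carries IL-2 signals to the Foxp3 locus, was 0.50 higher in Nfkb2-KO (adjusted p = 0.0276 against WT), and Tet3, which oxidizes methylated cytosine, was lower (-0.49, adjusted p = 0.0391). Without any 1 of the WT and Nfkb2-KO libraries neither was called. In DKO against Nfkb2-KO, 5 of the 22 were called with the block, 1 higher and 4 lower, where 5.02% of all genes were called. The 4 with the largest differences were Nr4a2 (-1.05) and Nr4a3 (-0.56), nuclear receptors induced by T cell receptor signals, Rel, the NF-kB subunit c-Rel (-0.52), and Tet3 (0.45). Rel read 11.69 and 11.34 in WT, 11.77 and 11.38 in RelB-KO, 11.81 and 11.69 in Nfkb2-KO, and 11.50 and 10.96 in DKO. That count ranged from 0 to 5 when each library was left out in turn. Foxp3 itself differed by 0.01 ± 0.12 in the same comparison. In Nfkb2-KO against RelB-KO, Nr4a2 (0.65) and Stat5a (0.47) were called higher and Tet3 (-0.62) lower with the block. Of all genes 4.46% were called there. Each of these calls was lost in some of the fits that left out 1 library.

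Among partners and modifiers of the Foxp3 protein, Irf4, a transcription factor of effector Treg cells, was called higher in Nfkb2-KO than in WT with the block (0.56, adjusted p = 0.0364, against 0.210 in the limma fit without it). Irf4 read 13.76 and 13.82 in Nfkb2-KO, 13.40 and 13.06 in WT, 13.11 and 13.16 in RelB-KO, and 13.44 and 13.56 in DKO. Both Nfkb2-KO libraries lay above the other 6, and the call with the block was lost without WT replicate 2 or without any 1 of the Nfkb2-KO and DKO libraries. Foxp1, described above, is also of this list, and only single genes of it are described here, not its counts. In DKO against Nfkb2-KO, Foxp1 (0.70) and Ezh2, a histone methyltransferase (0.51), were called higher and Hdac9, a histone deacetylase (-0.55), lower with the block, and none of these 3 passed in the limma fit without it. The calls of Foxp1 and Hdac9 were lost without any 1 of the DKO and Nfkb2-KO libraries, and that of Ezh2 without DKO replicate 1 or either Nfkb2-KO library. Genes of the neuropilin-1 axis, 9 tested of 11 listed, gave 0 calls by limma in any comparison in either model. At most 2 had an unadjusted p under 0.05 without the block, in DKO against Nfkb2-KO (9.86% of all genes) and in Nfkb2-KO against RelB-KO (11.9%). Leaving out either WT library gave 1 call with the block, in Nfkb2-KO against RelB-KO.

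**Figure D5:**
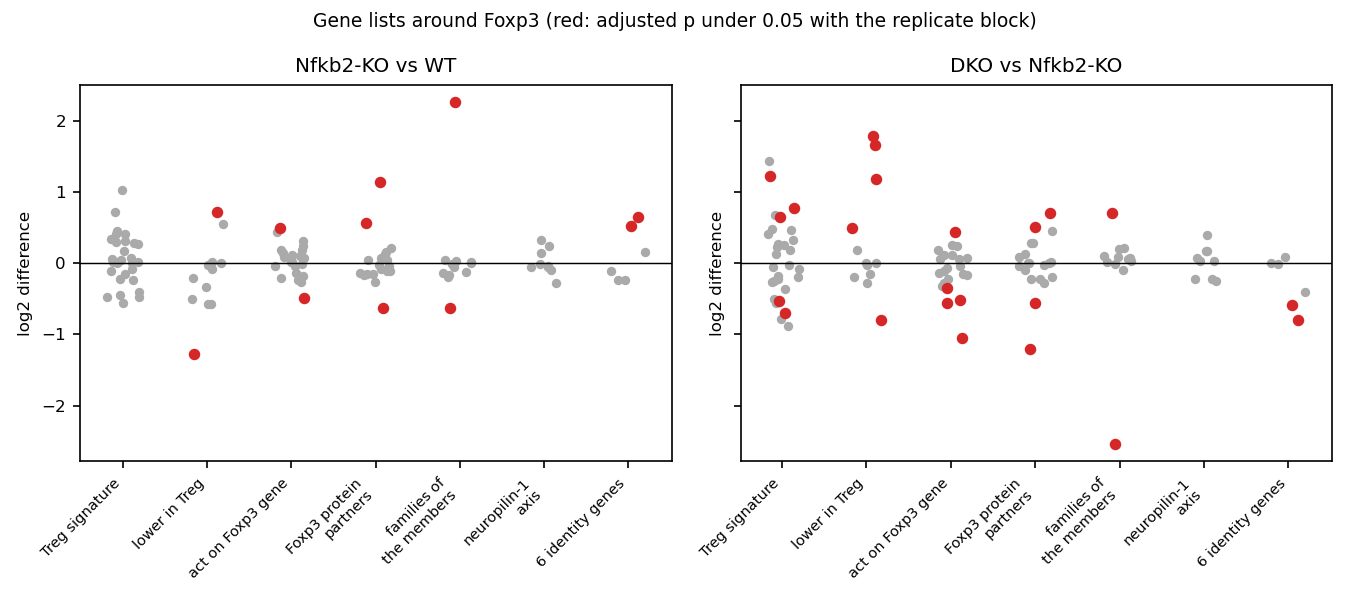
Difference in log2 units (vertical axis) of every tested gene of the 6 lists and of the 6 identity genes (horizontal axis), for Nfkb2-KO against WT on the left and DKO against Nfkb2-KO on the right. Red points have a limma adjusted p under 0.05 with the replicate block and grey points do not. Scin is the highest red point on the left (2.27) and the lowest on the right (-2.54), and the Treg signature has 0 red points on the left.

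Capg, Nrp1 and Swap70 are also expressed by myeloid, dendritic or B cells, so markers of those cells were read beside them. Summed macrophage and monocyte markers, 7 in the table, ran from 6.26 to 6.5 in WT, 6.27 to 6.89 in RelB-KO, 6.25 to 6.46 in Nfkb2-KO and 6.27 to 6.75 in DKO, and 0 of them were called in either model. Summed B cell markers ran from 7.28 to 7.5 in WT, 7.36 to 7.75 in RelB-KO, 7.64 to 7.72 in Nfkb2-KO and 7.77 to 7.84 in DKO. Of the 6 B cell markers Pax5 was listed at 0 in all libraries, Cd79b made up most of the sum, and 0 were called. Summed dendritic cell markers ran from 10.68 to 10.81 in WT, 10.74 to 10.75 in RelB-KO, 10.9 to 11.005 in Nfkb2-KO and 10.77 to 10.85 in DKO, so that they lay highest in Nfkb2-KO, as Capg and Swap70 did. Bst2 made up most of this sum, at 10.31 to 10.65 over all libraries, and differed by 0.05 between Nfkb2-KO and WT. Flt3 (-0.01) and Xcr1 (-0.16) lay lower in Nfkb2-KO than in WT, and Zbtb46 lay higher. Of these 7 markers Clec9a was listed at 0 in all libraries and 0 were called without the block. With it Zbtb46 was called in the same 3 comparisons as Capg and Swap70 and in the same direction, at 0.79 in Nfkb2-KO against WT (adjusted p = 0.0239), -1.22 in DKO against Nfkb2-KO (0.00213) and 0.84 in Nfkb2-KO against RelB-KO (0.0127). Xcr1 was called lower in Nfkb2-KO than in RelB-KO with the block (-0.38, limma adjusted p = 0.0452). This call was lost without RelB-KO replicate 1 or any 1 of the Nfkb2-KO and DKO libraries. The Zbtb46 call against WT was lost without either WT library, either DKO library or Nfkb2-KO replicate 2. Its call in DKO against Nfkb2-KO was lost without DKO replicate 2. Its call in Nfkb2-KO against RelB-KO was lost without replicate 2 of either genotype. Summed CD8 T and NK cell markers ran from 8.03 to 8.29 over all libraries. Summed Treg markers, Foxp3 among them, ran from 17.02 to 17.05 in WT, 17.07 to 17.22 in RelB-KO, 17.08 to 17.09 in Nfkb2-KO and 17.32 to 17.37 in DKO, and 0 of the 4 were called. Il2ra was the largest part of this sum. In DKO against WT Il2ra differed by 0.49, Ctla4 by 0.25, Ikzf2 by 0.15 and Foxp3 by -0.10. The part of the markers that moved in the results for Capg and Swap70 was not tested.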

How the data were processed

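RNA-seq of 8 Treg libraries was used. The authors deposited 1 table of log2 values, called log2 RPKM, batch corrected, per the file headers. The submitters' processing notes name STAR, mm10 and DESeq2 1.10.1 without roles. The counting and batch methods are not given in the sources used here. The un-logged values summed to 18.2 to 19.7 M per library, which RPKM would not give, and values of weakly expressed genes hardly varied, so folds of such genes are understated. The depth is unknown beyond the 30 M reads planned per sample. The p-values the authors deposited are named as theirs, and 8 columns of per-sample z-scores were not used.

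Of 22432 genes, 6247 at 0 in all libraries and 1 with a blank cell were left out, and 13797 were tested, those whose un-logged values averaged 1 or more. A planned log2 with a pseudocount of 1 became an alternative because the values were already logged. limma 3.58.1 in R 4.3.3 was fitted with the 4 genotypes (empirical Bayes with a variance trend, 4 residual degrees of freedom, 3 with the replicate block). Benjamini-Hochberg adjustment ran over all genes. Both models were also run on simulated normal noise with the observed replicate shift and planted changes. The noise was set from the model with the block, so that run cannot show whether the block suits these data. Differences between replicates 1 and 2 correlated across genes between genotypes (r = 0.81 to 0.89 in 6 pairs of genotypes), which was taken to pair the libraries, although no label states a shared source.

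Members and gene lists were chosen with earlier results of these data known. Named genes were the members, the 3 genes most like each, up to 4 called genes per list and comparison, and relatives of members. Sbf2, Adm and the individual markers of Treg and other cell types were named after their values were seen. Alternatives were the block, the pseudocount, filters, quantile normalization, the variance trend and each library left out. Promoters are from RefSeq (GRCm38.p6) and positions from GENCODE (GRCm38). Results for 2 genes of the lists are not reported here.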

Additional observations from a re-analysis of the deposited data

How the results depend on the processing

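With replicate number as a block, 2 of the 6 genes were called in Nfkb2-KO against WT, in DKO against Nfkb2-KO and in Nfkb2-KO against RelB-KO, against 0 without it. No other comparison changed its number of members called. With the block and each library left out, these counts ranged from 0 to 2, from 0 to 3 and from 1 to 2, and without the block they were 0 in every such fit. The pseudocount of 1, no filter, a minimum mean of 16, quantile normalization and no variance trend kept the members called at 0 and kept the sign of every member's difference from WT. Among all genes the block called 2, 402, 9, 693, 2, 615 and 65 in the 7 comparisons (RelB-KO, Nfkb2-KO and DKO against WT, DKO against Nfkb2-KO, DKO against RelB-KO, Nfkb2-KO against RelB-KO, interaction), against 1, 47, 2, 106, 1, 110 and 1 without it. Leaving out 1 library without the block gave 1 to 12, 0 to 29, 1 to 13, 8 to 58, 0 to 2, 9 to 55 and 0 to 12. In Nfkb2-KO against WT no filter gave 20 and no variance trend 12. No variance trend gave 1 in DKO against WT and 0 in the interaction, and in DKO against RelB-KO it, no filter and the minimum of 16 each gave 0.

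Leaving out 1 library turned the sign of small uncalled differences. DKO against WT ranged from -0.19 to 0.050 for Capg, -0.22 to 0.022 for Foxp3, -0.38 to 0.11 for Gpr83 and -0.45 to 0.15 for Swap70. RelB-KO against WT ranged from -0.045 to 0.10 for Foxp3, -0.30 to 0.092 for Gpr83, -0.15 to 0.18 for Nrp1 and -0.35 to 0.013 for Swap70, and Nfkb2-KO against WT from -0.012 to 0.32 for Nrp1. The cause was not tested. Where a genotype keeps 1 library, that library is assumed to vary as the others do. The minimum of 16 left 11030 genes and no filter 16184. The leave-one-out fits with the block, those of the lists, neighbours and markers, the fit without a variance trend and the correlations without Nfkb2-KO were added after the data were seen. With 2 libraries per genotype and unknown depth, differences as small as those of Foxp3 were not detectable here.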
